A study of Bos taurus with 48 samples.

Results

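Adipose gene expression was compared between 2 genetic groups of Norwegian Red heifers at 12 months of age. One group came from a pedigree selected for high milk yield (HMY) and the other from a pedigree with low occurrence of clinical mastitis (LCM). The comparison used every library labelled as the 12-month sampling, 24 of the 48 libraries in the series, with 12 HMY and 12 LCM heifers. Each library was a biopsy of subcutaneous fat taken beside the tail base of 1 heifer. Both pedigrees were held in the same university herd and were spread evenly over 4 diets that crossed low (LP) or high (HP) protein with low (LE) or high (HE) energy, written LPHE, LPLE, HPHE and HPLE, with 3 HMY and 3 LCM heifers on each. The diets were fed from the rearing period until pregnancy was established, so all heifers were on their diet at this sampling. The remaining 24 libraries were a second biopsy of the same heifers in month 7 of gestation, after the diets had ended, and are used only to show the same genes at another time. The 2 pedigrees stand for selection lines and not for a single allele, so heifers within a pedigree differed in many loci.

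Subcutaneous fat stores triacylglycerol, makes fatty acids from acetate in ruminants, and secretes hormones such as leptin that report energy reserves. Milk yield draws on these reserves through growth hormone, insulin-like growth factors and insulin. Resistance to mastitis, a bacterial infection of the udder, rests on innate sensing, cytokines and the leukocytes that they recruit, some of which also reside in fat. The comparison asks whether selection for either trait is visible in the fat of young heifers before any lactation.

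Gene counts per library were 18497583 to 49699041 in HMY and 14815595 to 59809633 in LCM, with medians of 31644293.5 and 32320202.5. Depth on the log2 scale differed by 0.018 between pedigrees (permutation test within diet, two-sided, p = 0.94). The share of read pairs assigned to genes was 56.4% ± 2.46 (SD, n = 12) in HMY and 55.5% ± 3.51 (SD, n = 12) in LCM (permutation p = 0.47). On a multidimensional scaling of the 500 most different genes, the pedigrees differed by 0.20 on the first dimension (permutation p = 0.45) and by 0.15 on the second (permutation p = 0.62), which is less than the SD within either pedigree. The LCM heifers 13 and 24 lay farthest from the centre. For 23 heifers the 12-month library, compared with the month 7 libraries of the same diet and pedigree, correlated best with that heifer's own, but for the HMY heifer 12 on LPHE it did not (correlation of deviations 0.017). Its labels were kept as given, and 0 genes passed at 12 months without it. Levels are given below as CPM, gene counts scaled to library size with trimmed-mean (TMM) factors, and differences as log2 fold changes of HMY against LCM from a model with diet, so that a positive value is higher in HMY.

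Few genes were called between the pedigrees, and the count changed with the test and with single heifers. A low count of calls does not show that few genes differed. Of 13339 genes tested, 1 passed a false discovery rate (FDR) of 0.1 in edgeR's likelihood ratio test (0.00750% of the genes), and this gene was lower in HMY. The quasi-likelihood F test called 0 genes (lowest FDR 0.41, with 1501 genes at an unadjusted p under 0.05) and DESeq2 called 11, 3 higher and 8 lower in HMY. The median log2 fold change over all genes was -0.01 and the median absolute value was 0.12, against a median standard error (SE) of 0.14. For 12418 genes, 93.1% of those tested, the 95% interval of the log2 fold change lay between -1 and 1, so that a difference of more than 2-fold was outside the interval. An unadjusted p under 0.05 was reached by 1465 genes, 454 higher (3.40%) and 1011 lower (7.58%) in HMY. The same libraries gave 2037 genes (15.3%) at an FDR of 0.1 between the HE and LE diets.

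**Figure D1:**
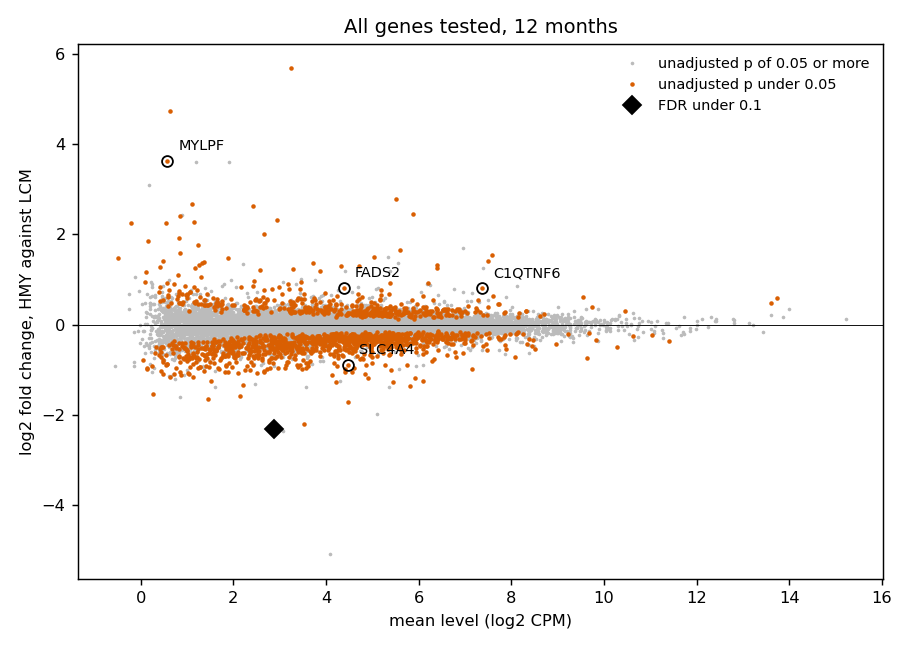
Log2 fold change of HMY against LCM at 12 months (vertical axis) against mean level in log2 CPM (horizontal axis) for the 13339 genes tested, each point a gene. Orange points are the 1465 genes with an unadjusted p under 0.05, and the black diamond is the 1 gene that passed an FDR of 0.1; most points lie close to 0.

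The count of called genes depended on single heifers. When each heifer was left out in turn, between 0 and 86 genes passed; 0 passed in 10 of the 24 fits (without heifer 3, 4, 8, 9, 10, 12, 18, 21, 22 or 24), while 86 passed without heifer 17, 56 without heifer 7, 20 without heifer 14 and 16 without heifer 13. It was 8 without heifer 1 or 20, 5 without heifer 15, 3 without heifer 6 or 19 and 2 without heifer 16 or 23. Without heifers 13 and 24 together, 5 genes passed, 4 higher and 1 lower in HMY.

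Symbols were at hand for 1005 of the tested identifiers, all of them genes that the study had listed for a difference between diets in these same libraries, and the other genes are known here only by identifier. Among the 1005 genes with a symbol, 0 passed the FDR in the likelihood ratio test, and 91 (9.05%) had an unadjusted p under 0.05, 53 higher and 38 lower in HMY, beside 10.98% over all genes.

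The gene that passed was ENSBTAG00000013412. Its level was 1.11 to 2.82 CPM in the HMY heifers with a median of 2.10, and 1.83 to 44.6 CPM in the LCM heifers with a median of 3.29. The LCM heifers fell into a low set of 7 and a high set of 5, the latter being heifers 5, 22, 8, 21 and 24 at 15.5, 19.7, 24.3, 27.1 and 44.6 CPM, and no HMY heifer was above 2.82. The log2 fold change was -2.31 ± 0.45 (SE; edgeR FDR = 0.057, permutation p within diet = 0.0021), and it had the same sign in 4 of 4 diets. In month 7 of gestation the same 5 LCM heifers were again high, at 14.6, 15.6, 11.3, 25.1 and 40.5 CPM, and the difference was -1.67 ± 0.48 (edgeR FDR = 0.21). The HMY heifer 10 was at 1.32 CPM at 12 months and at 10.4 CPM in month 7, just below the high set. The call was lost under the quasi-likelihood F test (FDR = 0.41), and over 43 alternative fits the gene passed in 29, with a log2 fold change between -3.23 and -1.31.

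The other genes without a symbol described here had the smallest p-values after it or a split among heifers, and none passed an FDR of 0.1. ENSBTAG00000022058 was at 1.83 to 6.02 CPM in HMY (median 3.32) and 0.364 to 3.58 CPM in LCM (median 1.22), a log2 fold change of 1.38 ± 0.32 (edgeR FDR = 0.13). Here 9 LCM heifers lay below every HMY heifer, but in month 7 the difference was 0.51 ± 0.40. ENSBTAG00000001117 was at 6.87 to 12.8 CPM in HMY (median 9.80) and 8.22 to 20.2 CPM in LCM (median 14.9), with a log2 fold change of -0.59 ± 0.14 (edgeR FDR = 0.13), and 9 LCM heifers lay above every HMY heifer. In month 7 its difference was 0.03 ± 0.14, with medians of 11.4 CPM in HMY and 11.6 CPM in LCM. ENSBTAG00000001292, named after its values were seen, was above 5 CPM in 7 HMY heifers, the highest at 46.9 CPM, and in 1 LCM heifer at 14.8 CPM. The remaining heifers were at 0.838 to 3.69 CPM. Its log2 fold change was 2.32 ± 0.54 (edgeR FDR = 0.13), and in month 7 it was 0.51 ± 0.29, when the highest heifer stood at 6.25 CPM.

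**Figure D2:**
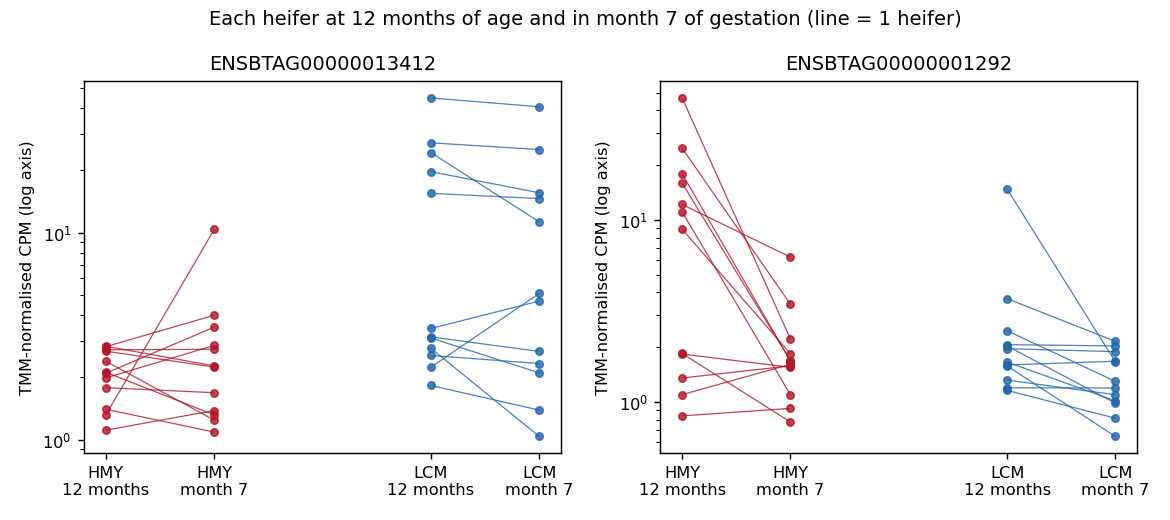
CPM on a log axis of ENSBTAG00000013412 (left) and ENSBTAG00000001292 (right) in each heifer at 12 months and in month 7 of gestation, HMY in red and LCM in blue, with a line joining the samples of 1 heifer. The 5 LCM heifers at 15.5 to 44.6 CPM for the first gene stayed at 11.3 to 40.5 CPM in month 7, whereas the 7 HMY heifers that were high for the second gene at 12 months came down to 6.25 CPM or less.

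Among genes with a symbol the smallest p belonged to a member of the fatty acid synthesis list, FADS2, the delta-6 desaturase that starts the conversion of linoleic and linolenic acid to longer polyunsaturated fatty acids. Its level was 14.6 to 45.7 CPM in HMY (median 24.2) and 3.99 to 31.0 CPM in LCM (median 12.7). The ranges overlapped, although 7 LCM heifers lay below every HMY heifer. The log2 fold change was 0.81 ± 0.20 with a 95% interval of 0.41 to 1.20, which missed the threshold (edgeR FDR = 0.13; permutation p within diet = 0.0012), and DESeq2 gave an adjusted p of 0.089. By diet, the means in HMY and LCM were 22.9 and 8.38 CPM on LPHE, 21.3 and 9.27 CPM on HPHE, 26.6 and 18.1 CPM on HPLE, and 30.8 and 30.1 CPM on LPLE (n = 3 each). The heifers of the pedigrees did not overlap on LPHE and HPHE, and they overlapped on HPLE and LPLE. FADS2 was named for its small p in these same heifers, so the lack of overlap adds no support. The share of all genes without such overlap was not computed. The log2 fold change was not shown to differ between HE and LE diets (difference 1.02 ± 0.36, edgeR FDR = 0.36). In month 7 the log2 fold change was 0.16 ± 0.29.

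Of the 17 genes listed for fatty acid synthesis, 13 had an identifier and were tested, 0 passed, 5 were higher and 8 lower in HMY, and the median log2 fold change was -0.14 beside -0.01 over all genes. Without diet in the model 7 were higher and 6 lower, with a median of 0.02. In month 7 the list's median was 0.33. ELOVL6, which lengthens palmitate to stearate, was at 246 to 2240 CPM in HMY (median 889) and 622 to 3030 CPM in LCM (median 1276), a log2 fold change of -0.49 ± 0.22 (edgeR FDR = 0.42). IDH1, a source of cytosolic NADPH, had a log2 fold change of -0.33 ± 0.17 (edgeR FDR = 0.45). For FASN, which builds palmitate, the HMY median was 9904 CPM and the LCM median 9379 CPM, with a 95% interval of the log2 fold change of -0.36 to 0.34. For SCD, the delta-9 desaturase, the medians were 10632 and 10063 CPM and the interval was -0.63 to 0.30.

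LEP encodes leptin, the adipocyte hormone that signals fat reserves. It was detected in all heifers, at 75.7 to 793 CPM in HMY (median 282) and 178 to 733 CPM in LCM (median 372), with a log2 fold change of -0.54 ± 0.26 (edgeR FDR = 0.45, permutation p = 0.064). In month 7 LEP had the opposite sign, at 0.39 ± 0.22. In these bulk samples fewer adipocytes and less RNA per adipocyte cannot be told apart. The lowest 4 heifers were all HMY and the highest 2 were HMY too. The means in HMY and LCM were 640 and 395 CPM on HPHE, 146 and 387 CPM on HPLE, 408 and 602 CPM on LPHE, and 121 and 218 CPM on LPLE (n = 3 each). The log2 fold change was not shown to differ with energy (edgeR FDR = 0.43) or protein (edgeR FDR = 0.81). CIDEC, a protein of the lipid droplet, was at medians of 1754 and 1964 CPM, a log2 fold change of -0.16 ± 0.16. Of the 12 adipocyte genes listed, these 2 could be identified, and both were well above detection in every heifer. The 3 identified genes of triacylglycerol synthesis and storage, of 16 listed, had a median log2 fold change of 0.13, and AGPAT2, an enzyme that makes phosphatidic acid, was at 0.27 ± 0.21 (edgeR FDR = 0.63). For lipolysis and fatty acid oxidation 2 of 22 were identified. CPT1A, which admits fatty acids to mitochondria, was at 0.22 ± 0.11 (edgeR FDR = 0.43) and CPT2, its inner-membrane partner, at -0.11 ± 0.14.

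**Figure D3:**
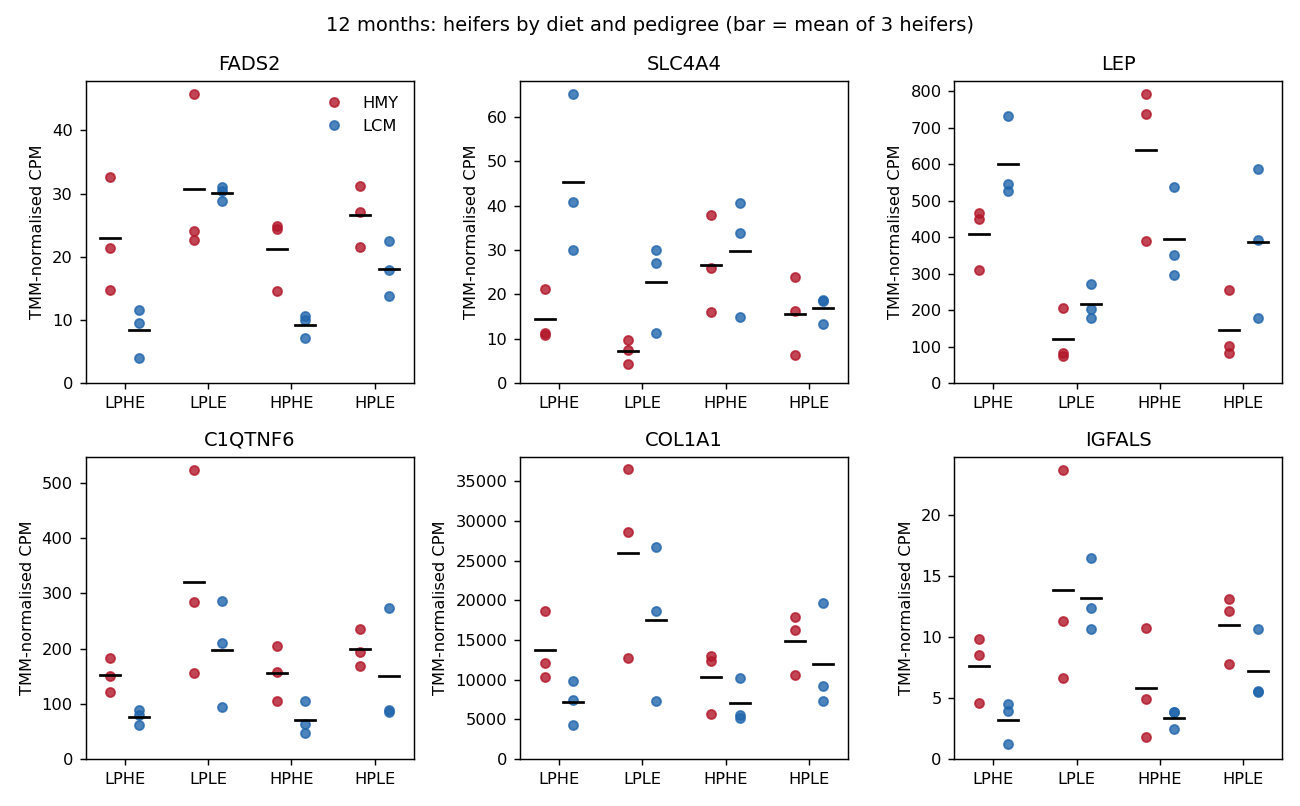
TMM-scaled CPM at 12 months of FADS2, SLC4A4, LEP, C1QTNF6, COL1A1 and IGFALS in each heifer by diet, HMY in red and LCM in blue, with a black bar for the mean of 3 heifers. FADS2 means were 22.9 against 8.38 CPM on LPHE and 30.8 against 30.1 CPM on LPLE, and none of the 6 genes passed an FDR of 0.1.

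The growth hormone, insulin-like growth factor and prolactin list had 5 of 20 genes identified, and 0 passed. All 5 had a positive log2 fold change, with a median of 0.33, beside 6491 genes higher and 6848 lower over all genes tested. The 5 had a symbol only through the study's lists of genes that differed between diets. Their log2 fold changes of HE against LE ran from -1.31 (PRLR) to -0.26 (IGF2), so their shared sign is not read as a result about the list. IGFALS, which holds circulating IGF in a ternary complex, was at 1.79 to 23.6 CPM in HMY (median 9.18) and 1.20 to 16.5 CPM in LCM (median 5.01), a log2 fold change of 0.67 ± 0.27 (edgeR FDR = 0.35, permutation p = 0.066). IGF2, a fetal and paracrine growth factor, was at 1088 to 2454 CPM in HMY (median 1342) and 783 to 1787 CPM in LCM (median 1111), a log2 fold change of 0.29 ± 0.14 (edgeR FDR = 0.41) with the same sign in 4 of 4 diets. PRLR, the prolactin receptor, was near the detection limit, with medians of 1.40 and 0.836 CPM and a log2 fold change of 0.50 ± 0.35 (edgeR FDR = 0.58). In month 7 the list's median was -0.18. Insulin signalling had 2 of 14 genes identified, IRS1, the docking protein of the insulin receptor, at 0.26 ± 0.12 (edgeR FDR = 0.43), and GRB10, an inhibitor of that receptor, at 0.19 ± 0.16.

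Among genes at loci for milk traits and mastitis, 6 of 26 were identified and 0 passed. SLC4A4, a sodium bicarbonate cotransporter, was at 4.40 to 37.8 CPM in HMY (median 13.7) and 11.4 to 65.0 CPM in LCM (median 28.5). In 6 HMY heifers it was below every LCM heifer, and the log2 fold change was -0.90 ± 0.27 (edgeR FDR = 0.26, permutation p = 0.0074). In month 7 it was 0.35 ± 0.36.

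Genes of defence were thinly covered. No identifier was matched for the lists of MHC class I, MHC class II, T and NK cells, B and plasma cells, neutrophils and mast cells, and thermogenic genes, which were not analysed here. LBP, which presents bacterial lipopolysaccharide to its receptor, was at medians of 48.6 CPM in HMY and 54.0 CPM in LCM, a log2 fold change of 0.13 ± 0.15 with a 95% interval of -0.17 to 0.43. The chemokines CCL21 and CCL5 were at -0.56 ± 0.41 (edgeR FDR = 0.64) and -0.26 ± 0.30 (edgeR FDR = 0.76). Among acute phase proteins, CP, the copper carrier ceruloplasmin, was at -0.50 ± 0.30 (edgeR FDR = 0.54), and AGP, an acid glycoprotein of plasma, at -0.11 ± 0.25. SERPING1, the inhibitor of complement C1, was at -0.14 ± 0.17. LYVE1, a hyaluronan receptor of lymphatic vessels and of some resident macrophages, was at 6.06 to 46.2 CPM in HMY (median 19.8) and 6.91 to 216 CPM in LCM (median 32.5), a log2 fold change of -0.70 ± 0.34 (edgeR FDR = 0.45). Thus 0 of the identified defence genes passed in either direction.

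Both identified interferon-stimulated genes, of 35 listed, varied widely among heifers within each pedigree, and 0 passed. MX2, an antiviral GTPase, was at 0.781 to 5.92 CPM in 10 LCM heifers and at 64.8 and 477 CPM in the LCM heifers 5 and 24. In HMY it was at 1.504 to 8.24 CPM in 8 heifers and at 24.9, 83.5, 154 and 230 CPM in heifers 2, 3, 18 and 1. The pedigree means were 43.4 and 47.3 CPM, yet the fit with diet gave a log2 fold change of 2.78 ± 0.84 (edgeR FDR = 0.39, permutation p = 0.35) and the fit without diet -0.12, so no direction can be given. OAS1X, of the same response, had medians of 19.2 and 10.9 CPM and maxima of 171 and 278 CPM (edgeR FDR = 0.46). In month 7 the MX2 levels of these 6 heifers were 1.60 to 3.63 CPM.

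Skeletal muscle markers were tested for 7 of 22 listed genes, and 0 passed. Of the 7, 5 reached the filter's 2 CPM in fewer than 3 LCM heifers and so were tested because of their HMY levels, which leaves the list's direction without weight. Their summed level was 0.752 to 145 CPM in HMY (median 4.85) and 0.930 to 50.5 CPM in LCM (median 3.92), so most heifers of both pedigrees were near 0. CKM, the muscle creatine kinase, was above 1 CPM in 5 HMY heifers, at 1.23, 3.23, 7.03, 15.4 and 16.1 CPM, and in 2 LCM heifers, at 1.10 and 3.02 CPM (log2 fold change 2.27 ± 0.68, edgeR FDR = 0.30, permutation p = 0.082). MYLPF, a light chain of fast myosin, was above 1 CPM in 3 HMY heifers and 1 LCM heifer (log2 fold change 3.62 ± 1.02, edgeR FDR = 0.27, permutation p = 0.15). Its medians were 0.104 CPM in HMY and 0.067 CPM in LCM. MYH2, a fast myosin heavy chain, was at 0 in 9 LCM and 5 HMY heifers. The part of muscle RNA in other differences between the pedigrees was not tested.

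Fibroblast and matrix genes had 8 of 19 identified, with a median log2 fold change of 0.19 and 0 passing. Of the 8, 6 were higher and 2 lower in HMY, beside 6491 higher and 6848 lower over all genes tested. COL1A1, a chain of type I collagen, was at 5606 to 36482 CPM in HMY (median 12851) and 4307 to 26745 CPM in LCM (median 8289), a log2 fold change of 0.59 ± 0.23 (edgeR FDR = 0.34, permutation p = 0.025). COL1A2, the other chain, was at 0.49 ± 0.22 (edgeR FDR = 0.39). Both were higher in HMY in 4 of 4 diets, and in month 7 they were at -0.10 ± 0.33 and -0.11 ± 0.31. The smooth muscle markers MYH11 and DES were at medians of 140 and 138 CPM and of 51.8 and 65.6 CPM in HMY and LCM, with maxima of 2714 and 2815 CPM in LCM, and their log2 fold changes turned from -0.62 and -0.65 to 0.02 and 0.09 without the LCM heifer 15. The epithelial markers KRT19 and DSP were at -0.55 ± 0.39 and -0.68 ± 0.54. S100B, a Schwann cell gene that adipocytes also express, was at -0.29 ± 0.17 (edgeR FDR = 0.53).

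Genes of respiration, detoxification, the clock and stress had small fitted differences. Of 34 genes listed for the electron transport chain 29 were tested, 0 passed and 0 had an unadjusted p under 0.05, with log2 fold changes of -0.15 to 0.21 and a median of 0.05. UQCRQ of complex III had the smallest p, at 0.21 ± 0.13, and ATP5G1 of ATP synthase was at 0.16 ± 0.13. Glutathione and detoxification had 15 genes tested and a median of 0.01. GSTM1, a glutathione transferase, was at -0.32 ± 0.16 (edgeR FDR = 0.44) and GPX7, a peroxidase of the endoplasmic reticulum, at 0.28 ± 0.14 (edgeR FDR = 0.44). The clock genes DBP and BHLHE41 were at 0.18 ± 0.24 and 0.06 ± 0.13, and the stress gene HSPA6 at 0.00 ± 0.33.

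**Figure D4:**
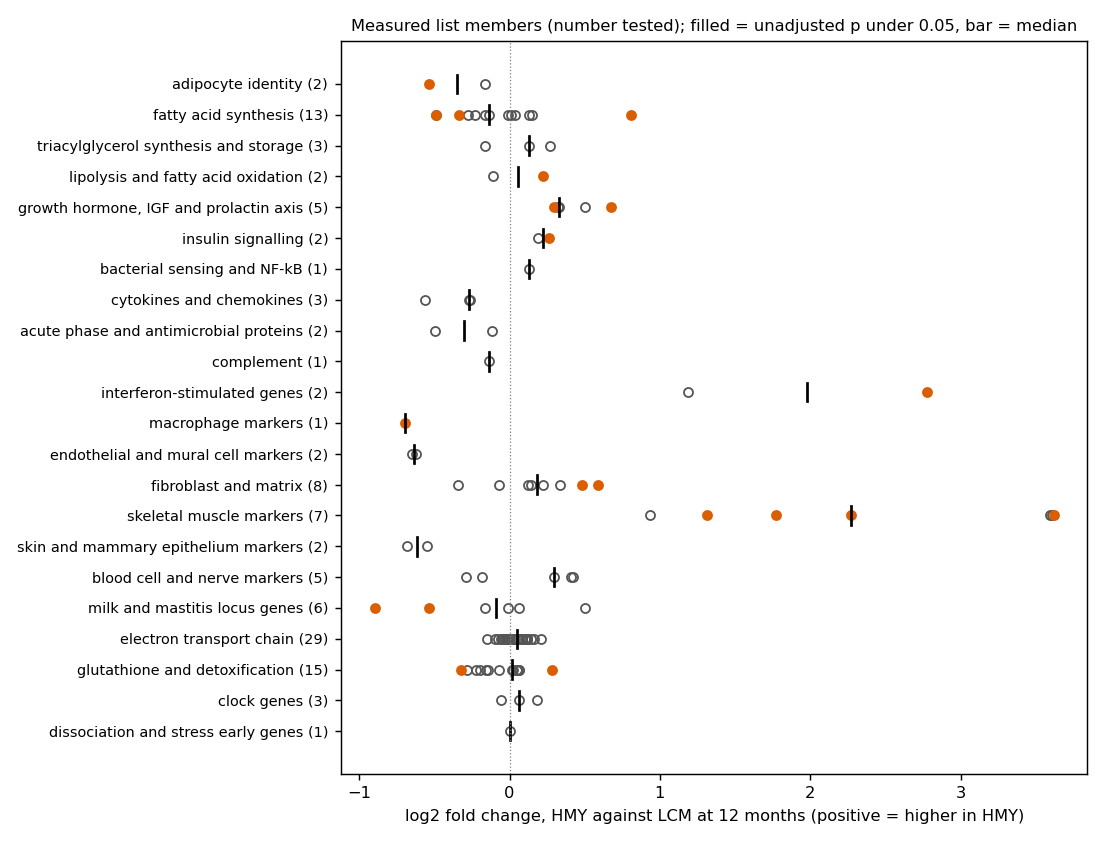
Log2 fold change of HMY against LCM at 12 months (horizontal axis) of each identified and tested member of the gene lists (vertical axis, number tested in brackets); filled orange circles have an unadjusted p under 0.05, open circles do not, and the black bar is the list's median. Of the 7 skeletal muscle markers 5 passed the filter on low counts through the HMY heifers, and the 29 electron transport genes lie between -0.15 and 0.21.

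Other genes with a symbol are named here after their values were seen. C1QTNF6, a secreted relative of adiponectin, was at 105 to 524 CPM in HMY (median 176) and 47.1 to 286 CPM in LCM (median 88.5), with 9 LCM heifers below every HMY heifer and a log2 fold change of 0.81 ± 0.23 (edgeR FDR = 0.22). With 1 heifer left out at a time, C1QTNF6 passed without heifer 13 at 0.997 (edgeR FDR = 0.0034). It also passed without heifer 14 at 0.89 (edgeR FDR = 0.096) or 17 at 0.85 (edgeR FDR = 0.078), and without no other single heifer. In month 7 its log2 fold change was -0.17 ± 0.39. PLAGL1, an imprinted zinc finger regulator of growth, was at 44.4 to 84.6 CPM in HMY (median 59.7) and 32.8 to 61.4 CPM in LCM (median 49.8), a log2 fold change of 0.27 ± 0.08 (edgeR FDR = 0.25), with 6 HMY heifers above every LCM heifer. SYBU, a linker of vesicles to kinesin, was at 0.41 ± 0.12 (edgeR FDR = 0.24). UNC79, of the sodium leak channel complex, was at -1.07 ± 0.30 (edgeR FDR = 0.22), and DENND5B, which acts on Rab proteins, at -0.96 ± 0.27 (edgeR FDR = 0.22). ASIP, the agouti signalling protein, had maxima of 41.4 CPM in HMY and 14.01 CPM in LCM (log2 fold change 1.995 ± 0.61, edgeR FDR = 0.30).

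Whether the pedigree difference depended on the diet was tested in a model of the 8 diet and pedigree cells. Between HE and LE diets, 9 genes (0.0675% of 13339) had a different pedigree effect at an FDR of 0.1, 5 with a positive and 4 with a negative difference, and 0 of the 9 had a symbol. The quasi-likelihood F test called 0 (1090 genes at an unadjusted p under 0.05). ENSBTAG00000011798 was at medians of 58.4 CPM in HMY and 73.9 CPM in LCM on HE diets and of 73.3 and 50.1 CPM on LE diets (n = 6 each), an interaction of -0.96 on the log2 scale (edgeR FDR = 0.016). ENSBTAG00000032436 had the same order, at medians of 446 and 771 CPM on HE diets and 652 and 479 CPM on LE diets, an interaction of -1.19 (edgeR FDR = 0.020). For ENSBTAG00000018833 the medians were 1.98 and 0.42 CPM on HE diets and 0.50 and 1.32 CPM on LE diets, an interaction of 3.74 (edgeR FDR = 0.0089). The largest of the named interactions, 6.40 for ENSBTAG00000001219 (edgeR FDR = 0.0089), came with medians of 5.88 and 2.71 CPM on HE diets and 2.67 and 11.6 CPM on LE diets, and the LCM heifers on LE diets spanned 2.79 to 451 CPM. The symbol with the smallest p was MX2 (edgeR FDR = 0.11), whose heifer values are given above.

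Between HP and LP diets, 0 genes (0%) had a different pedigree effect by the likelihood ratio test (lowest FDR 0.25, 1137 genes at an unadjusted p under 0.05) and 0 by the quasi-likelihood F test. The smallest p-values belonged to ENSBTAG00000003936, ENSBTAG00000002258 and ENSBTAG00000001706, with interactions of -0.75, -1.92 and 4.37. Fitted apart, however, the 12 LP heifers gave 310 called genes (2.37%), 110 higher and 200 lower in HMY (110 and 115 without TMM scaling), and the 12 HP heifers gave 0 (0%; lowest FDR 0.18, 182 genes at an unadjusted p under 0.05). Since the test of the difference called 0 genes, the pedigree effect was not shown to differ between protein levels. The LP count fell to 141 without the HMY heifer 12 and to 26 without the LCM heifer 24, 24 of the latter being among the 310, and the quasi-likelihood F test called 0 in LP heifers (2258 genes at an unadjusted p under 0.05).

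Of the 310 genes, 32 had a symbol, 13 higher and 19 lower in HMY, and 3 of these 32 still passed without heifer 24. They were SLC4A4, at -1.64 ± 0.30 in LP and -0.14 in HP heifers, CHPF, which polymerises chondroitin chains, at 1.05 ± 0.22 and 0.04, and DENND5B, at -1.57 ± 0.35 and -0.33. SLC4A4 was at means of 14.4 CPM in HMY and 45.3 CPM in LCM on LPHE and of 7.24 and 22.8 CPM on LPLE (n = 3 each). The LP heifers of the pedigrees did not overlap within either diet. SLC4A4 is described here because of these same LP values, so the lack of overlap adds no support. The share of all genes without such overlap was not computed. The 4 members of the lists among the 32 were SLC4A4 and, from fatty acid synthesis, ELOVL6 at -0.84 ± 0.26, IDH1 at -0.64 ± 0.20 and ME1, the malic enzyme that yields NADPH, at -0.95 ± 0.30, all 3 of which lost the call without heifer 24, at -0.73, -0.49 and -0.73 (edgeR FDR = 0.31, 0.28 and 0.33). In HP heifers these 3 genes were at -0.09, -0.01 and 0.00. SELE, the endothelial selectin that catches leukocytes, was at 2.14 ± 0.54 in LP and 0.35 in HP heifers. NOS3, the endothelial nitric oxide synthase, was at 0.98 ± 0.28 and 0.15. Both were named after their values were seen, and both lost the call without heifer 24 (edgeR FDR = 0.15 and 0.27). Neither was shown to differ between LP and HP (interaction edgeR FDR = 0.59 and 0.58).

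**Figure D5:**
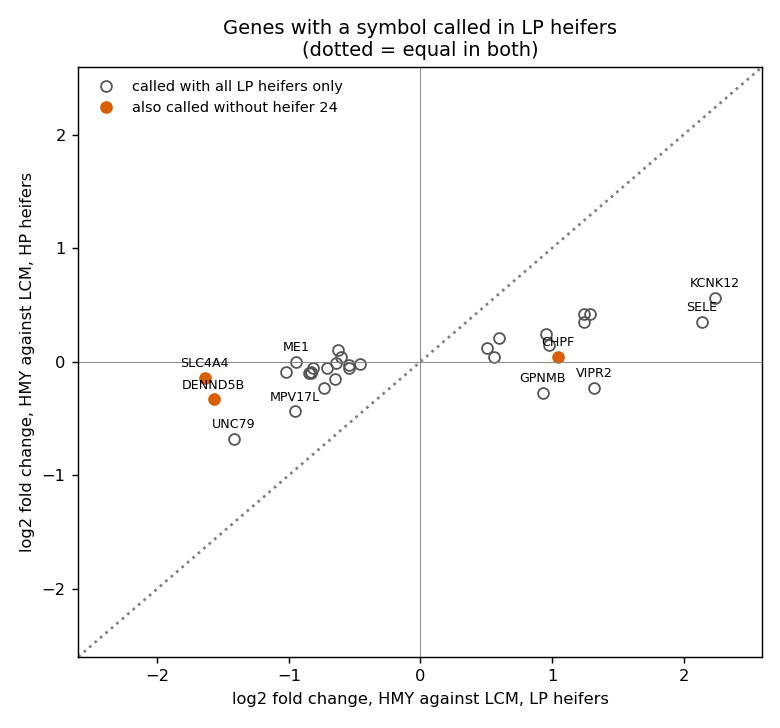
Log2 fold change of HMY against LCM in LP heifers (horizontal axis) and in HP heifers (vertical axis) of the 32 genes with a symbol called in LP heifers; filled circles are the 3 genes that also passed without heifer 24, and the dotted line marks equal values. SLC4A4 lies at -1.64 in LP and -0.14 in HP heifers; the genes were chosen by their LP values, so those are a description.

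The same heifers were compared in month 7 of gestation, when 23 of 13403 genes (0.172%) passed, 5 higher and 18 lower in HMY; the quasi-likelihood F test called 0 (1259 genes at an unadjusted p under 0.05). The 1 gene called at 12 months was not among them, which says little with so few calls. Of the 23, 21 had the same sign at 12 months. An unadjusted p under 0.05 at 12 months was reached by 10 of them, beside 10.98% of all genes. The 2 samplings share heifers, so they are not independent, and the share of all genes with the same sign was not computed. Of the 23 genes, 2 had a symbol. PCSK6, a proprotein convertase, was at -0.57 ± 0.14 in month 7 and -0.56 ± 0.32 at 12 months (edgeR FDR = 0.52). MYH2 was at 9.36 ± 1.92 and 3.61 ± 1.72 (edgeR FDR = 0.46). It is a muscle marker, and its call is not read as a pedigree difference. Another such marker, CKM, was in month 7 at a median of 0.446 CPM in HMY with a maximum of 32.1 CPM. In LCM it was at most 0.446 CPM. The heifers with muscle RNA were not the same at both times. The HMY heifers 17 and 19 held 49.6 and 87.1 CPM of MYH2 in month 7 and were at 0 at 12 months, while heifer 11, at 35.3 CPM at 12 months, was at 4.60 CPM.

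A test of the difference between the samplings called 0 of 13718 genes (0%; lowest FDR 0.35, 622 genes at an unadjusted p under 0.05), and the quasi-likelihood F test called 0. With the heifer as a block, which uses that each heifer was sampled at both times, 6 genes passed, 4 with a positive and 2 with a negative difference. The lowest FDR with the block was 5.5e-12 in edgeR's likelihood ratio test. Without heifer 12, whose libraries did not match best, it was 0.012 and 5 genes passed. The quasi-likelihood F test with the block called 0. The genes named next are from the fit without the block, which leaves the pairing out. Its smallest p-values were those of ENSBTAG00000021538, ENSBTAG00000015562 and ENSBTAG00000007071, with differences (12 months minus month 7) of -0.68, 0.55 and -0.57 (edgeR FDR = 0.35, 0.35 and 0.96).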

How the data were processed

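Subcutaneous fat RNA of 24 heifers was sequenced at 2 samplings as 100-base read pairs from an unstranded library kit. The deposited values are raw counts of reads per gene. Per the labels and the study's methods, the authors trimmed reads with Cutadapt 1.3, aligned them with TopHat2 2.0.12 to UMD3.1 and counted with HTSeq. Since the kit was unstranded, overlapping and antisense genes cannot be told apart. The strand setting of the counting is not given in the sources used here. The 5 summary lines of each table (39.3% to 52.5% of reads at 12 months) were dropped, leaving 24616 genes.

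Genes at 2 CPM or more in 3 or more of 24 libraries were tested with edgeR 4.0.16 (R 4.3.3; TMM, glmFit, likelihood ratio test, diet and pedigree in the model, Benjamini-Hochberg FDR under 0.1). This is the study's model; the quasi-likelihood F test and DESeq2 1.42.0 are alternatives. Errors are Wald SEs of the model, and the 95% intervals follow from them. Single genes were also tested by two-sided permutation within diet (100000 resamples) on log2(CPM + 0.5). The scripts were tested on simulated data. Replicates are separate heifers; libraries of 1 diet, pedigree and sampling differed beyond counting noise in every pair (chi-square over genes at least 38.3 for each degree of freedom). The heifer number pairs the samplings, since the labels give the same animal. Deviations of the paired libraries correlated at over 0.1, up to 0.57, for 23 of 24 heifers, and at 0.017 for heifer 12, whose 12-month library correlated better with the month 7 library of another heifer.

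Counting error only is covered by depth, at 14815595 or more gene counts per library. Symbols came from the study's lists of genes that differed between diets (1005 identifiers). The reference table matched 0 identifiers, so no sequence or position is given, and 1 identifier with 2 symbols was left without. Genes were named by rule: every called gene, 2 members of each list with the smallest p, the 3 smallest p of each interaction, and LEP and PRLR. GHR, IGF1, TLR4, CXCR1, BOLA-DRB3 and DGAT1, also in the rule, had no identifier and were not analysed here. One further gene of the rule is not reported here. Genes without a symbol are named at most 2 per direction. The members and lists were chosen with earlier results of these data known.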

Additional observations from a re-analysis of the deposited data

Results flagged for a closer look

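The pedigree difference at 12 months differed between high- and low-energy diets for 9 genes in edgeR's likelihood ratio test of the interaction (FDR under 0.1). The 4 named ones had interactions, HE minus LE on the log2 scale, of 3.74 (ENSBTAG00000018833), 6.40 (ENSBTAG00000001219), -0.96 (ENSBTAG00000011798) and -1.19 (ENSBTAG00000032436). On LE diets ENSBTAG00000001219 ranged from 2.79 to 451 CPM in LCM with a median of 11.6, whereas ENSBTAG00000011798 was at 43.5 to 55.2 CPM in LCM and 53.4 to 83.9 CPM in HMY. With 12 samples in each pedigree, no single sample was tested for standing apart from its group.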

How the results depend on the processing

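Genes called between pedigrees at 12 months (1) numbered 0 with the quasi-likelihood F test, 11 with DESeq2, 2 with at least 10 counts in every library, 62 with the 8 diet and pedigree cells, 5 with all 48 libraries in the fit, 0 at an FDR of 0.05 and 19 at 0.2. With HE, LE, HP and LP heifers apart they numbered 37, 57, 0 and 310. In LP heifers they numbered 0 with the quasi-likelihood F test, 26 without heifer 24, 141 without heifer 12, 225 without TMM and 168 without the filter; without heifers 13 and 24 they numbered 5 (these last 6 settings were chosen after seeing the data). Leaving out 1 heifer at a time gave 0 to 86. The count stayed at 1 without TMM, with RLE factors, without the filter and without diet in the model. The 1465 genes at an unadjusted p under 0.05 became 919 to 1944 when 1 heifer was left out; the share higher in HMY was 31.0%, and 23.4% without TMM. In the LP fit without TMM, 110 were higher and 115 lower. Calls in month 7 (23) numbered 0 and the energy interaction (9) 0 by the quasi-likelihood F test; the protein interaction (0) gave 1 without TMM, and the time interaction (0) gave 6 with the heifer as replicate block, the single result to which the block applies. Without heifer 12, chosen after seeing the data, month 7 gave 16, the energy interaction 12, the protein interaction 0, and the time interaction 0, or 5 with the replicate block. The second scaling dimension differed by 0.15 with 500 genes, 0.23 with 100 and -0.090 with 2000. Reversed without diet in the model were MX2 (-0.12), FASN (0.047) and HSPA6 (-0.22), and HSPA6 also with the quasi-likelihood F test (-0.0054), without TMM (-0.022) and without the filter (-6.19e-05). Leaving out 1 heifer at a time gave log2 fold changes of -0.068 to 0.15 for FASN, -0.19 to 0.21 for HSPA6, -0.19 to 0.095 for AGP, -0.86 to 0.016 for MYH11 and -1.05 to 0.094 for DES; the cause was not tested.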
